A study of Mus musculus with 8 samples.

Results

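Between and beside the known genes of the mouse heart the deposited assembly holds many short unspliced transcripts that match no annotated gene. The loci described here are those whose transcripts are all classed as intergenic and consist of 1 exon, and whose span lies less than 10 kb from a locus that equals, shares a splice junction with or overlaps an exon of a known gene. There were 4433 such loci among 35299 in the deposited table. By the strand of the nearest gene, 1813 lay past its 3′ end and 1826 before its 5′ end, and 794 lay inside or overlapped its span and entered neither side. The rule used positions and classes and no expression value.

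All 8 samples were hearts of C57BL/6J mice 12 weeks old, for which no allele, sex or other treatment is given. The 4 MI samples came from mice with a myocardial infarct and the 4 Sham samples from sham-operated mice, and in both groups the border zone, the muscle beside the infarct or its counterpart, was taken 2 weeks after surgery. Polyadenylated RNA was sequenced, and the series states 4 biological replicates per condition. The Sham titles carry the remark "reanalysis", which the MI titles lack, so a difference in the origin of the libraries and the infarct cannot be told apart. The comparison asks which RNAs differ in the infarcted heart, and here also whether RNA beside a gene moved with that gene.

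RNA polymerase II does not stop at the point where the 3′ end of a messenger RNA is cut and polyadenylated, and continues for some distance past it. Cells also use alternative polyadenylation sites, which give longer or shorter 3′ ends than the annotated one. At the other end of genes, many mammalian promoters start transcription in both directions, and enhancers are transcribed as well, usually into short-lived unspliced RNA. In the border zone of a healing infarct, cardiomyocytes under strain lie beside fibroblasts that deposit collagen and beside immune cells.

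The libraries held 165 to 190.2 M reads in loci in MI hearts and 108 to 161 M reads in Sham hearts, and 1 read was worth 0.663 to 0.873 normalised reads in MI libraries and 1.14 to 1.58 in Sham libraries. The loci near genes took 0.0660% to 0.0905% of the reads in MI libraries and 0.0505% to 0.0668% in Sham libraries. Between 49 and 178 of the 4433 loci had no read in an MI library, against 242 to 356 in a Sham library. Every Sham library had fewer reads than every MI library. Sham replicate 3, of 161 M reads, had 332 such loci, and MI replicate 4, of 165 M reads, had 178. The part of depth in these counts was not tested. Markers of fibroblasts summed to 264900 to 403900 normalised reads in MI hearts and 80480 to 95080 in Sham hearts, with 6 of 6 genes higher. Of 5 macrophage markers with their own locus, 5 were higher, as were 3 of 4 T cell, 3 of 3 B cell and 3 of 4 smooth muscle markers. The 3 cardiomyocyte markers with their own locus summed to 2195000 to 2649000 in MI hearts and 2811000 to 3476000 in Sham hearts, with 2 lower. The 6 endothelial markers summed to 130200 to 150000 in MI hearts and 115700 to 156800 in Sham hearts, and no marker was at 0. The part of these shifts in the results below was not tested, and in bulk tissue fewer cells of a type and less RNA per cell cannot be told apart.

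The gene starts beside which some of the loci lay are shown by 3 promoters, chosen after the values were seen because RNA just upstream did not follow the gene there. Each is the reference sequence from 250 bases before to 50 bases after the start of the gene (RefSeq, GRCm38.p6), in the direction of the gene. Capitals mark the TATA box motif TATAAA, the GC box motif GGGCGG and the CCAAT box on either strand.
Dpp9: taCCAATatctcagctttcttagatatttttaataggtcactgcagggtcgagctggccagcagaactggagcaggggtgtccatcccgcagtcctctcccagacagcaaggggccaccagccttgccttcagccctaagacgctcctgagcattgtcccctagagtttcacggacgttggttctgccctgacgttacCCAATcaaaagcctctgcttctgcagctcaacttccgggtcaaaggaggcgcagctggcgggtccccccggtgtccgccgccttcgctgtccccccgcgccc
Adarb1: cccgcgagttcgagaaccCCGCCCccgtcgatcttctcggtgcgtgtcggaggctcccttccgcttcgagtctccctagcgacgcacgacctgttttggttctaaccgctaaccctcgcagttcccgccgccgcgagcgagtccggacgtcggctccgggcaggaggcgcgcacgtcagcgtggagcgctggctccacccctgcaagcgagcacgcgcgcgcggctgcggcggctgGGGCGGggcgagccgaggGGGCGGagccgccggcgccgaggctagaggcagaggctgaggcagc
Vim: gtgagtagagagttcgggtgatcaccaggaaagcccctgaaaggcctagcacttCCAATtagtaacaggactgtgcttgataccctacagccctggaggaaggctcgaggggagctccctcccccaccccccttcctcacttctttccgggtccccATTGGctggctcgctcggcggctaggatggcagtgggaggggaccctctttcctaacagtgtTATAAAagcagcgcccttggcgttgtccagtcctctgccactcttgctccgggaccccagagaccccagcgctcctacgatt
The Dpp9 window (chr17:56218840-56219139, minus strand) had 15 CpG dinucleotides and the CCAAT motif. The Adarb1 window (chr10:77418224-77418523, minus strand) had 46 CpG, 73% G and C, and the GC box. In the Vim window (chr2:13574061-13574360, plus strand) both TATAAA and CCAAT were found, with 11 CpG. Of 32851 RefSeq promoters of the same length, 13.6% held TATAAA, 35.7% held GGGCGG and 37.4% held CCAAT, with a median of 7 CpG and 52.7% G and C. The deposited loci are on mm9, of which no genome was used here, so they were not placed on these windows. In mm9 the loci began 722 bp before the Dpp9 gene, 57 bp before Adarb1 and 131 bp before Vim. For Dpp9 this is the distance to an assembled start, and the transcript that equals a UCSC gene started 1352 bp away, while for Adarb1 and Vim the distances are the same.

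Among loci of the intergenic class, those before the 5′ end crowded against the gene. Past the 3′ end the counts stepped up further out, with 86 loci at gaps from 1.5 to 2 kb and 185 from 2 to 2.5 kb. Loci with transcripts of any other class were left out by the rule, also close to genes. The counts therefore do not show how all unspliced RNA lies around genes, on either side. The part of this rule in the distances was not tested. Of the 1826 loci before a 5′ end, 711 (38.9%) lay under 1 kb from the gene, against 406 of 1813 (22.4%) past a 3′ end. Median gaps were 1763 bp before the 5′ end and 2981 bp past the 3′ end. The 1813 loci past a 3′ end belonged to 1250 genes, 393 of which had 2 or more, and the 1826 loci before a 5′ end to 1308 genes, 367 of which had 2 or more. The gap was measured to the outermost assembled transcript of the gene. For 1431 (78.9%) of the loci past a 3′ end and 1465 (80.2%) of those before a 5′ end this was the end of a transcript that equals a UCSC gene. For 153 and 83 loci the UCSC gene itself ended 10 kb or more away.

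**Figure D1:**
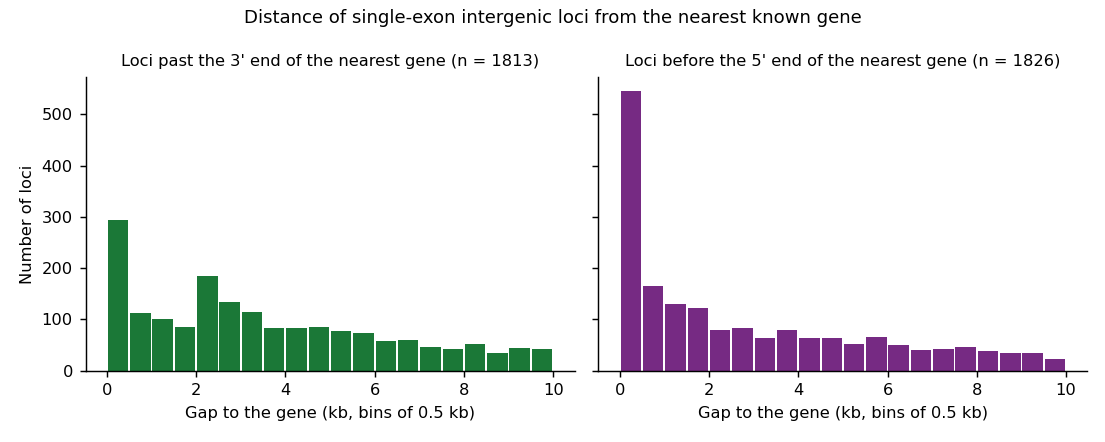
Number of loci by the gap to the nearest gene, in bins of 0.5 kb, for the 1813 loci past a 3′ end (left) and the 1826 loci before a 5′ end (right). The bin nearest the gene holds 294 loci past a 3′ end and 545 before a 5′ end, and past the 3′ end a second step of the counts stands just beyond 2 kb. Only loci of the intergenic class are counted.

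The loci were short and low. Their median length was 1245 bp past the 3′ end and 1158.5 bp before the 5′ end, and their median levels were 6.08 and 6.28 normalised reads per kb. The neighbouring genes had median levels of 376.5 and 463.4 normalised reads per kb of exon. At the median a locus stood at 1.71% of its gene's level per kb past the 3′ end and 1.58% before the 5′ end. In 126 and 140 cases it stood above its gene. Of the 4433 loci, 3452 had reads in all 8 libraries and 15 had none in any, and 1707 reached the mean of 10 normalised reads over the 8 samples that the test required. Of those tested, 679 lay past a 3′ end and 651 before a 5′ end. Only 26 loci carry a strand in the annotation, so for the others the direction of transcription is unknown, and overlapping RNA of both strands cannot be told apart.

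Past the 3′ ends, 72 loci were higher and 33 lower in MI hearts (limma on log2 of the value plus 1, Benjamini-Hochberg adjusted p under 0.05 over all 19186 tested loci). Together these were 105 of 679, or 15.5%, against 40.9% of all tested loci, of which 20.8% were higher and 20.1% lower. Among loci of a mean from 10 to under 50, 13.5% of the 576 past a 3′ end were called, against 24.8% of all 4537. The groups did not overlap for 97 of the 679 (14.3%), against 39.6% of all tested loci. Their median log2 difference, MI minus Sham, was 0.09, against −0.02 over all tested loci. Rescaled to equal library totals, which moved the median of all loci to 0.29, the loci past a 3′ end split into 145 higher and 12 lower with a median of 0.40. Of all 19245 loci tested under that scaling, 8569 were higher and 1493 lower. Without MI replicate 1 the higher count was 38, and the lower count was 17 without MI replicate 3, 20 without MI replicate 4 and 17 without Sham replicate 2.

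Among called loci past a 3′ end with a mean of at least 50 and groups apart, the largest rise stood beyond 2810433D01Rik, a gene of non-coding RNA, at chr11:102464890-102469720 in mm9. It had 1871, 828, 1205 and 1874 normalised reads in MI replicates 1 to 4, against 511, 298, 379 and 413 in Sham replicates 1 to 4. All 4 MI hearts were above every Sham heart, and the log2 difference was 1.80 ± 0.26 (SE; adjusted p = 0.000377). The gene itself, 6288 bp away, rose further, by 2.83 ± 0.27.

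Past Mmp16, which encodes a membrane-bound matrix metalloproteinase, the locus at chr4:18047060-18052531 had 127, 72.5, 123.5 and 126 in MI hearts, against 40.6, 45.5, 36.4 and 36.3 in Sham hearts. MI replicate 2 was the lowest MI heart and still above all Sham hearts (log2 difference 1.45 ± 0.22, adjusted p = 0.000571), and the Mmp16 gene rose by 1.01 ± 0.17. Beyond Crispld1, which encodes a secreted cysteine-rich protein, a locus 127 bp from the gene (chr1:17762047-17768373) had 217, 143, 174 and 191 in MI hearts, against 84.8, 99.1, 62.5 and 97.8 in Sham hearts. Here too the groups were apart, with a difference of 1.07 ± 0.20 (adjusted p = 0.00162) beside 0.63 ± 0.12 for the gene. In these cases the RNA past the gene and the gene rose together, with locus minus gene at 0.44 ± 0.24 for Mmp16 and 0.44 ± 0.23 for Crispld1, neither past the threshold.

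Loci beside neighbours of almost no reads also rose. The locus at chr16:19594505-19602891, past the UCSC gene uc007yoz.1, had 203.5, 222, 201 and 250.4 normalised reads in MI hearts, against 80.0, 61.5, 138 and 48.9 in Sham hearts. The neighbour had no read in any of the 8 libraries. Past Gm3787 (0.537 ± 0.653 normalised reads in MI hearts and 0.881 ± 1.14 in Sham hearts, SD, n = 4 each), the locus at chr15:77182748-77190421 had 352, 239.6, 193.5 and 256, against 192, 115, 110.3 and 113.5. In both loci every MI heart was above every Sham heart, though by a small margin at Gm3787, where Sham replicate 1 nearly reached MI replicate 3. Their log2 differences were 1.51 ± 0.28 and 0.97 ± 0.23 (adjusted p = 0.00157 and 0.00632).

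The largest fall past a 3′ end among called loci of a mean of at least 50 with groups apart followed Gm28703, at chr9:90708907-90717254, 63 bp from the gene. It had 73.6, 100.5, 46.9 and 49.7 normalised reads in MI hearts, against 271, 245, 228.5 and 229 in Sham hearts, with a log2 difference of -1.90 ± 0.23 (adjusted p = 0.000158). The gene fell by 2.18 on the same scale, and the locus on its other side, described below, fell as well. The groups were far apart, and every MI heart was below every Sham heart.

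Past Amd1, which encodes S-adenosylmethionine decarboxylase of polyamine synthesis, the locus at chr10:40002596-40003886 had 32.5, 49.4, 36.2 and 40.1 in MI hearts, against 94.3, 93.4, 65.9 and 96.2 in Sham hearts. It fell in parallel with the gene, with differences of -1.12 ± 0.21 for the locus (adjusted p = 0.00186) and -1.04 ± 0.18 for Amd1. The locus past 9030404E10Rik (chr16:30013626-30015693) had 107, 89.8, 56.0 and 83.8 in MI hearts, against 134, 188, 116 and 191 in Sham hearts (-0.90 ± 0.24, adjusted p = 0.0122). Its groups were separated narrowly, by MI replicate 1 and Sham replicate 3, and the call was lost when libraries were scaled to equal totals (−0.59, adjusted p = 0.0867).

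Calls with smaller falls rested on thin margins. Past uc007zwh.1 (chr16:90340420-90341937) the difference was -0.67 ± 0.23 (adjusted p = 0.0395), past Zfp955b (chr17:33448956-33453854), a zinc-finger gene, -0.64 ± 0.22 (adjusted p = 0.0404), and past Fastkd2 (chr1:63803655-63807015), which encodes a protein that binds mitochondrial RNA, -0.58 ± 0.21 (adjusted p = 0.0494). Their means were 84.8 ± 27.7, 41.1 ± 8.14 and 40.3 ± 5.24 in MI hearts and 130.2 ± 8.31, 64.5 ± 12.8 and 61.5 ± 12.6 in Sham hearts (SD, n = 4 each). In none of these 3 did the groups overlap. The call of uc007zwh.1 was lost without any 1 library other than MI replicate 1, that of Zfp955b without any 1 other than MI replicate 1 or Sham replicate 3, and that of Fastkd2 without MI replicate 1, 3 or 4 or Sham replicate 1 or 2. Scaled to equal totals, the 3 differences were −0.37, −0.34 and −0.28, with adjusted p of 0.27, 0.278 and 0.322. All 3 calls were also lost with no filter on low values (adjusted p = 0.057, 0.0732 and 0.0912) and with reads thinned to equal depth (0.0737, 0.0742 and 0.122). Those of uc007zwh.1 and Zfp955b were lost in edgeR (0.0787 and 0.0545), and that of Fastkd2 with TMM scaling (0.0567) and the replicate block (0.0552).

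**Figure D2:**
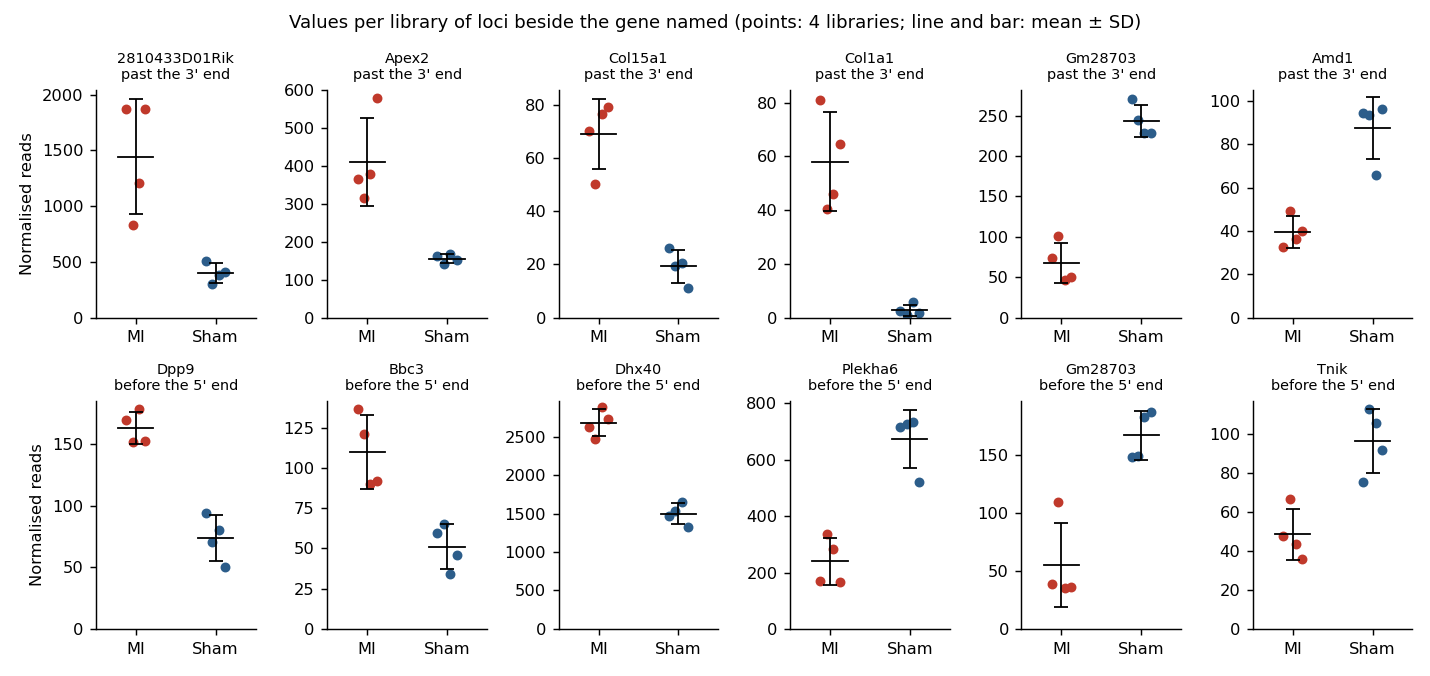
Normalised reads of 12 loci in each library, with MI to the left of Sham, points for the 4 libraries of a group, and a line and bar for mean and SD; the upper row lies past a 3′ end and the lower row before a 5′ end. Each vertical axis starts at 0 and has its own scale, and in all 12 panels the MI and Sham points do not overlap.

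Of 45 listed symbols of matrix genes, among them Ctgf and Ccn2 for the same gene, 43 had their own locus. Past the 3′ ends of these genes lay 12 intergenic loci, of which 4 reached the level tested. Of these 3 were higher, beside 20.8% of all tested loci, and the median log2 differences were 1.99 for the 4 loci and 2.74 for their genes. Past Col1a1, the main chain of type I collagen, the locus at chr11:94816740-94818622 had 80.9, 40.4, 46.1 and 64.6 normalised reads in MI hearts, against 2.39, 1.14, 5.68 and 1.58 in Sham hearts. No MI heart came near the Sham range, which lay at 1 to 5 reads a library, and the log2 difference was 4.09 ± 0.41 (adjusted p = 4.28e-05), beside 3.22 ± 0.26 for Col1a1 itself.

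Col15a1 encodes a collagen of basement membrane zones, and the locus 50 bp past it (chr4:47328107-47331229) had 70.3, 50.2, 76.6 and 79.4 in MI hearts, against 26.3, 19.4, 20.5 and 11.0 in Sham hearts. Locus and gene differed between groups by nearly the same amount, 1.83 ± 0.29 (adjusted p = 0.000651) and 1.75 ± 0.18. Past Loxl1, a lysyl oxidase that crosslinks elastin, the locus at chr9:58131937-58133776 had 21.9, 10.7, 19.8 and 35.8 in MI hearts, against 5.97, 2.28, 4.55 and 3.15 in Sham hearts (2.15 ± 0.42, adjusted p = 0.00223), beside 2.25 ± 0.19 for the gene. The fourth lay past Cilp, which encodes cartilage intermediate layer protein and rose by 3.80 ± 0.26: the locus 4362 bp past it had 16.6, 4.94, 4.94 and 4.36 in MI hearts, against 4.78, 22.8, 12.5 and 11.0 in Sham hearts, groups that overlap (-0.69 ± 0.52, adjusted p = 0.321). The loci past Col1a1 and Loxl1 reached the level tested only through MI hearts, with Sham means of 2.70 and 3.99 normalised reads. That past Cilp did so only through Sham hearts, with an MI mean of 7.70. The fibroblast markers given above, among them Col1a1 itself, were higher too. The locus past Cilp was not, and any link to the markers was not tested.

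No tested locus past a listed calcium, channel, sarcomere or fuel gene was called by limma, and of the 8 tested 1 had an unadjusted p under 0.05, with none called by edgeR or DESeq2. Among 20 calcium-handling and channel genes, 11 loci lay past 3′ ends, 5 were tested and none was called, with a median of 0.16 beside a median of −0.51 for their genes. The locus 4885 bp past Trdn, which encodes triadin of the sarcoplasmic reticulum, had 43.8, 41.2, 44.5 and 37.5 in MI hearts, against 39.4, 46.7, 26.1 and 39.4 in Sham hearts. This was a difference of 0.16 ± 0.23 (adjusted p = 0.608) beside -0.51 ± 0.09 for Trdn. Its groups overlapped. A nearer tested locus, 1869 bp past Trdn, differed by -0.11 ± 0.40 (adjusted p = 0.845), also with overlap. Trdn thus enters the median of the genes more than once. Past Ryr2, the calcium release channel, the locus at chr13:11627809-11631446 had 35.8, 27.2, 20.6 and 30.5 in MI hearts, against 25.1, 14.8, 14.8 and 25.2 in Sham hearts. The locus difference was 0.51 ± 0.29 and missed the threshold (adjusted p = 0.187), the gene fell by 0.67 on the log2 scale, and the 2 differed by 1.19 ± 0.34 (adjusted p = 0.0336, limma on locus minus gene).

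Of 3 loci past sarcomere genes 1 was tested, beyond Myl3, the ventricular essential light chain, 8787 bp from an assembled end and 16331 bp from that of the transcript that equals a UCSC gene: 15.9, 13.2, 7.41 and 6.11 in MI hearts, against 11.9, 21.6, 21.6 and 12.6 in Sham hearts (-0.66 ± 0.38, adjusted p = 0.186). Of 4 past genes of fuel use and mitochondria, 2 were tested and none was called. Past Acadl, an acyl-CoA dehydrogenase of fatty acid oxidation, the log2 difference was -0.17 ± 0.24, with means of 35.0 ± 7.97 in MI hearts and 38.9 ± 5.46 in Sham hearts. Past Ppargc1a, a coactivator of mitochondrial genes, single hearts ranged widely in both groups, with 23.2, 79.1, 118 and 12.2 in MI hearts, against 10.7, 253, 88.7 and 41.0 in Sham hearts, and the difference of -0.47 ± 0.91 was within that spread.

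Of 3 loci past stress genes 1 was tested, and it was called. Xirp1 encodes an actin-binding protein of the intercalated disc, and the locus at chr9:119917349-119920501, 83 bp past it, had 29.8, 18.1, 18.9 and 33.2 normalised reads in MI hearts, against 2.39, 2.28, 13.6 and 7.88 in Sham hearts. The lowest MI heart stood above the highest Sham heart, and the locus rose by 2.03 ± 0.51 (adjusted p = 0.00866) beside 0.48 ± 0.19 for the gene, which missed the threshold (adjusted p = 0.0599). With a Sham mean of 6.55 it reached the level tested only through MI hearts. The locus minus gene difference was 1.55 ± 0.46 (adjusted p = 0.0421). Of 20 transcription factor genes 1 had a locus past its 3′ end, which was too low to be tested.

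The loci with the most reads per kb past a 3′ end were not called. The locus past Rad18, a ubiquitin ligase of DNA repair, at chr6:112555247-112558896, had 5705, 6156, 6267 and 5939 normalised reads in MI hearts, against 5740, 6208, 5940 and 5862 in Sham hearts. At 1638 normalised reads per kb it stood far above the gene's 26.0, and it differed by 0.02 ± 0.06 (adjusted p = 0.834) while the gene rose by 0.58 ± 0.13. Locus minus gene was -0.565 ± 0.178 and missed the threshold (adjusted p = 0.0559, limma on locus minus gene). Under the scaling to equal totals the locus was called higher, by 0.33 (adjusted p = 0.00285), beside 0.29 for the median of all loci. Short loci past uc007ykn.1 (177 bp) and Tra2a (173 bp), a splicing factor gene, had 1011 ± 423 and 265 ± 88.2 in MI hearts and 1405 ± 881 and 351 ± 209 in Sham hearts (SD, n = 4 each). Their log2 differences of -0.39 ± 0.37 and -0.26 ± 0.40 did not pass the test (adjusted p = 0.421 and 0.648), and 1 Sham heart lay far above the others at uc007ykn.1.

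At the edge of the 10 kb limit, the locus 9992 bp past Cavin3, a caveolar coat gene, had 7.95, 1.65, 2.47 and 0.873 normalised reads in MI hearts, against 3.58, 0, 2.27 and 0 in Sham hearts. The nearest locus outside, 10001 bp past Zfp458, had 39.2 ± 9.27 in MI hearts and 32.4 ± 8.12 in Sham hearts (SD, n = 4 each). Before 5′ ends, the last locus inside the limit lay 9934 bp from uc007pha.1, with 6.06 ± 2.79 in MI hearts and 8.24 ± 5.71 in Sham hearts, and the nearest outside 10006 bp from Sptlc2, a subunit of serine palmitoyltransferase, with 4.43 ± 3.27 in MI hearts and 1.37 ± 1.31 in Sham hearts.

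Before the 5′ ends, 47 loci were higher and 48 lower in MI hearts by the same test. Together these were 95 of 651, or 14.6%, against the 40.9% of all tested loci, and among loci of a mean from 10 to under 50, 12.9% of 541 were called, against 24.8%. The groups did not overlap for 98 loci (15.1%), against 39.6% of all tested loci. The median log2 difference was −0.04, against −0.02 over all tested loci. Rescaled to equal library totals, the loci split into 101 higher and 19 lower with a median of 0.27, against 0.29 for all loci. All 19245 loci tested under that scaling gave 8569 higher and 1493 lower. Without MI replicate 1 the higher count was 22.

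The largest rise among called loci of a mean of at least 50 with groups apart lay 722 bp before Dpp9, a cytosolic dipeptidyl peptidase gene, at chr17:56359612-56362271. It had 169.7, 151.5, 179 and 153 normalised reads in MI hearts, against 94.3, 70.6, 80.7 and 50.5 in Sham hearts. No MI heart overlapped a Sham heart, and the log2 difference was 1.16 ± 0.20 (adjusted p = 0.00113). The Dpp9 gene went the other way, by -0.28 ± 0.07 (adjusted p = 0.0108), with means of 8280 ± 673.5 in MI hearts and 10050 ± 432 in Sham hearts (SD, n = 4 each).

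Before Bbc3, which encodes the apoptosis-promoting protein Puma, the locus at chr7:16885370-16893353 had 136.5, 121, 89.8 and 91.6 in MI hearts, against 59.7, 64.9, 34.1 and 45.7 in Sham hearts. Locus and gene rose together, by 1.11 ± 0.24 (adjusted p = 0.00452) and 0.68 ± 0.15, with groups that did not overlap. The locus before Dhx40, an RNA helicase gene, was one of the 3 with the most reads per kb before a 5′ end: at chr11:86623892-86629897 it had 2630, 2477, 2887 and 2735 in MI hearts, against 1475, 1540, 1647 and 1320 in Sham hearts. Its replicates varied little, and it rose by 0.84 ± 0.09 (adjusted p = 5.47e-05) while Dhx40 itself stood at 3231 ± 167 in MI hearts and 3240 ± 280.2 in Sham hearts.

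P2ry2 encodes a receptor for extracellular ATP and UTP, and the locus 199 bp before it (chr7:108162548-108170488) had 138, 123.5, 101 and 95.1 in MI hearts, against 65.7, 77.4, 58.0 and 63.1 in Sham hearts. This was a rise of 0.78 ± 0.18 (adjusted p = 0.00666), beside 0.01 ± 0.13 for the gene. Locus minus gene was 0.769 ± 0.275 and missed the threshold (adjusted p = 0.0934, limma on locus minus gene). Before Smim15, the gene of a small membrane protein, the locus at chr13:108832251-108834535 had 82.8 ± 13.3 in MI hearts and 52.7 ± 6.85 in Sham hearts (SD, n = 4 each; 0.64 ± 0.19, adjusted p = 0.0215). The groups did not overlap at either locus, and the Smim15 call was lost without MI replicate 1, MI replicate 4 or Sham replicate 4.

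Among falls, the locus before Gm28703 at chr9:90730208-90736011 had 39.1, 109.5, 35.4 and 35.8 normalised reads in MI hearts, against 148, 149, 183 and 188 in Sham hearts. MI replicate 2 stood above the other MI hearts and still under every Sham heart, and the difference was -1.76 ± 0.33 (adjusted p = 0.00194). Gene and both flanking loci thus fell: −2.18 for Gm28703, -1.90 past its 3′ end and -1.76 before its 5′ end.

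Plekha6 encodes a protein with a pleckstrin homology domain, and the locus at chr1:135118936-135122524 had 171, 337, 282 and 167.5 in MI hearts, against 716, 727, 734 and 520.3 in Sham hearts. Sham replicate 4 was low in its group and still above all MI hearts. The fall of the locus (-1.54 ± 0.23, adjusted p = 0.00048) stood beside a difference of 0.25 ± 0.13 for the gene, which missed the threshold (adjusted p = 0.154). It lay 95 bp from an assembled start of the gene, and 20158 bp from the start of the transcript that equals a UCSC gene.

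Before Tnik, the gene of a kinase of the germinal centre family, the locus 10 bp away (chr3:28157330-28162125) had 47.7, 66.7, 43.6 and 35.8 in MI hearts, against 75.2, 113, 106 and 91.5 in Sham hearts. Locus and gene both fell, with log2 differences of -0.99 ± 0.23 (adjusted p = 0.00582) and -0.51 ± 0.10. The locus before Ppp1r13b, which encodes the p53-binding protein Aspp1, at chr12:113146453-113150456, had 51.7, 57.6, 37.9 and 48.0 in MI hearts, against 83.6, 100.2, 85.3 and 91.5 in Sham hearts (-0.88 ± 0.19, adjusted p = 0.00374), and the gene differed by -0.11 ± 0.10 (adjusted p = 0.383). There locus minus gene was -0.77 ± 0.26 and missed the threshold (adjusted p = 0.078, limma on locus minus gene). A locus before AC148019.2 on chromosome 18 also fell, with 13.9, 45.3, 40.4 and 28.8 in MI hearts, against 63.3, 109, 52.3 and 67.8 in Sham hearts (-1.23 ± 0.37, adjusted p = 0.0209), beside a gene too low to be tested; its call was lost without Sham replicate 2 and under the scaling to equal totals (−0.94, adjusted p = 0.0558). In these 3 loci the groups did not overlap.

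Highest per kb before a 5′ end was a locus of 230 bp before AC154187.1 (chr17:71313007-71313236), with 3289, 6947, 4140 and 4762 normalised reads in MI hearts, against 8007, 6457, 7021 and 12410 in Sham hearts. MI replicate 2 overlapped the Sham range, and the difference was -0.83 ± 0.24 (adjusted p = 0.0175, 0.0527 without MI replicate 1, and 0.074 with a difference of −0.52 under the scaling to equal totals). The locus before Zfp236, a zinc-finger gene on chromosome 18, lay 7429 bp from an assembled start and 79078 bp from the start of the transcript that equals a UCSC gene. It had 899, 1016, 982 and 1074 in MI hearts, against 1259, 1179, 1368 and 1135 in Sham hearts, groups that do not overlap (-0.31 ± 0.09, adjusted p = 0.0196). Under the scaling to equal totals this difference was −0.01 with an adjusted p of 0.949, and the call was also lost without MI replicate 1 or Sham replicate 3.

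Few loci before the 5′ ends of listed heart genes could be tested. Of 17 before matrix genes 1 was, 8128 bp before Loxl1 (chr9:58169389-58176057), with 87.5, 48.6, 32.1 and 33.2 in MI hearts, against 14.3, 20.5, 4.55 and 34.7 in Sham hearts. Its groups overlapped through Sham replicate 4, and its rise of 1.56 ± 0.54 (adjusted p = 0.0381) was lost without MI replicate 1 or 2 or Sham replicate 1 or 3. The locus before Tpm1, the tropomyosin of heart muscle, had 29.2, 6.59, 4.94 and 12.2 in MI hearts, against 14.3, 5.69, 11.4 and 12.6 in Sham hearts (0.01 ± 0.52, adjusted p = 0.985). Before Egr1, an immediate early transcription factor gene on chromosome 18, the locus had 11.8 ± 4.13 in MI hearts and 16.7 ± 4.73 in Sham hearts (SD, n = 4 each), a difference of -0.49 ± 0.34 (adjusted p = 0.281) beside 1.16 ± 0.40 for Egr1, and the 2 differed by -1.64 ± 0.46 (adjusted p = 0.0312). The Egr1 gene had 4271, 1238, 2459 and 5268 in MI hearts, against 1258, 855, 1797 and 1436 in Sham hearts, groups that overlap. A first exon of a later annotation reaches this locus, as given below. Loci before stress genes (3) and before fuel and mitochondrial genes (3) were all too low to be tested, and no locus lay before a calcium or channel gene of the list.

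Rank correlations between locus and gene were higher past the 3′ end than before the 5′ end, which is given as a description with no test. Across 654 loci past a 3′ end whose gene was tested too, Spearman's rho between the log2 differences of locus and gene was 0.504, and across 600 loci before a 5′ end it was 0.284. These points share the 8 libraries, and loci of 1 gene share that gene's value. The median standard error of a locus was 0.34 past the 3′ end and 0.338 before the 5′ end. Inside or overlapping the gene's span, rho was 0.63 over 377 loci. Neighbouring annotated genes under 10 kb apart gave 0.159 over 4499 pairs, and single-exon intergenic loci 10 kb or more from a gene 0.26 over 725 pairs. Set against Sham with 1 MI library at a time, rho was 0.414 to 0.475 past the 3′ end and 0.238 to 0.27 before the 5′ end. For loci whose gap ends at a transcript that equals a UCSC gene it was 0.533 over 502 pairs and 0.296 over 492.

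Where both locus and gene were called, they mostly went the same way. Past a 3′ end both were called in 62 pairs, of which 57 had 1 direction and 5 had opposite ones. Before a 5′ end both were called in 42 pairs, 35 in 1 direction and 7 in opposite ones. The locus was called and the gene was not in 36 and 40 pairs. Of the genes beside tested loci, 40.4% were called past the 3′ end and 36.2% before the 5′ end. For single-exon loci 10 kb or more from a gene, both were called in 106 pairs, 76 of them in 1 direction. For spliced intergenic loci under 10 kb this was 42 of 60, and inside or overlapping a gene 37 of 38. These shares were not tested against each other.

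**Figure D3:**
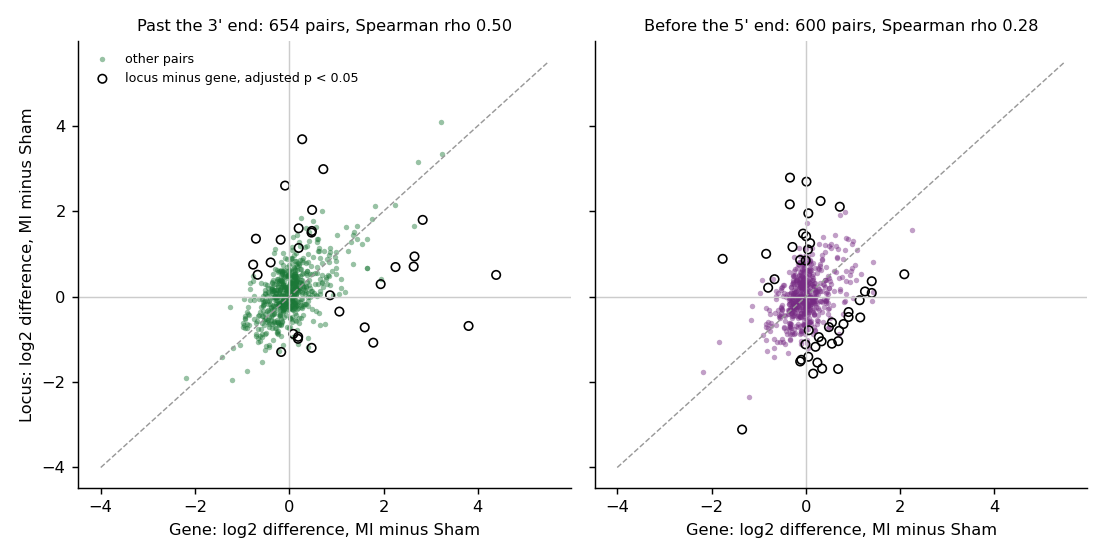
The log2 difference, MI minus Sham, of each locus (vertical axis) against that of its gene (horizontal axis), for 654 loci past a 3′ end (left, rho 0.50) and 600 before a 5′ end (right, rho 0.28); the dashed line marks equal differences. Open circles are the 29 and 44 loci whose difference departs from that of the gene at an adjusted p under 0.05.

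Past the 3′ end the correlation was lower with each step of distance, and before the 5′ end it had no such order. Past the 3′ end rho was 0.576 under 1 kb (214 pairs), 0.505 from 1 to 3 kb (168), 0.45 from 3 to 6 kb (155) and 0.417 from 6 to 10 kb (117). For loci further out, 10 kb or more past the nearest gene, it was 0.218 (343). Before the 5′ end the values at the same distances were 0.303 (308), 0.279 (107), 0.321 (110) and 0.13 (75), with 0.296 (382) further out. The spread between these values was not tested.

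**Figure D4:**
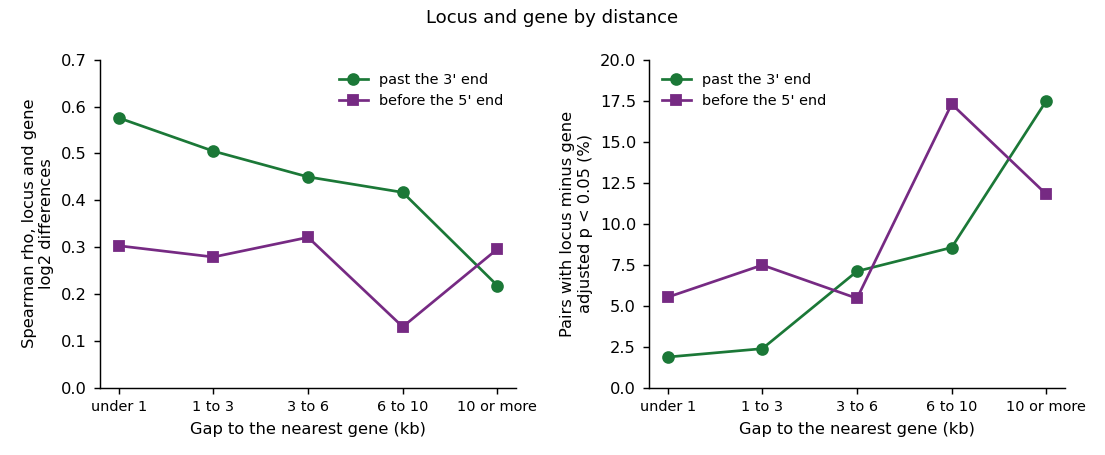
Spearman's rho between locus and gene differences (left) and the percentage of pairs in which the locus departs from its gene (right), by the gap to the nearest gene in kb, for loci past a 3′ end (circles) and before a 5′ end (squares). Past the 3′ end rho runs lower and the departing share higher with distance, with 0.576 and 1.87% under 1 kb and 0.417 and 8.55% from 6 to 10 kb.

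Loci between a pair of genes, past the 3′ end of one and before the 5′ end of the other, lay next to both, so each could be set against either. There were 667 such loci, and for 196 of them the locus and both genes were tested. Over these, rho was 0.268 with the gene whose 3′ end they followed and 0.3 with the gene whose 5′ end they preceded. The genes themselves gave −0.001 with each other. For the 88 loci nearer the gene whose 3′ end they followed, the values were 0.427 with that gene and 0.383 with the other. For the 108 loci nearer the gene whose 5′ end they preceded, they were 0.212 with that gene and 0.14 with the other.

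A direct test of locus minus gene (limma, adjusted over 3165 intergenic loci with a tested gene) called 29 loci past a 3′ end, 4.43% of 654, with 13 above and 16 below their gene. It called 44 loci before a 5′ end, 7.33% of 600, with 17 above and 27 below. Of all 3165 intergenic loci, 13% were called. By distance past the 3′ end the share was 1.87%, 2.38%, 7.1% and 8.55%, and before the 5′ end it was 5.52%, 7.48%, 5.45% and 17.3%. These counts moved with the library left out, and a fit without 1 library also has fewer samples. Past the 3′ end 13 were called without MI replicate 1, 18 without MI replicate 3 and 16 without MI replicate 4. There were 19 without Sham replicate 2 and 25 without MI replicate 2. Before the 5′ end 28 were called without MI replicate 1, 29 without MI replicate 3 and 23 without MI replicate 4. There were 27 without Sham replicate 2, 29 without Sham replicate 4 and 44 without MI replicate 2.

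Apex2, which encodes an endonuclease of DNA base repair, had the locus with the smallest p of these at a mean of at least 50. At chrX:146919204-146924642 it had 364.5, 316, 379 and 578.5 normalised reads in MI hearts, against 162, 141, 167 and 151 in Sham hearts, a rise of 1.36 ± 0.18 (adjusted p = 0.000247). The annotated locus had 1126 ± 124 in MI hearts and 1859 ± 388 in Sham hearts (SD, n = 4 each), a fall of 0.71 on the log2 scale, and locus minus gene was 2.06 ± 0.27 (adjusted p = 0.000427). Groups did not overlap at the intergenic locus, where MI replicate 4 was highest. The end of the gene, 1230 bp away, was that of an assembled transcript, and the transcript that equals a UCSC gene ended 24879 bp away. The values of the annotated locus cover all its assembled transcripts, and the part of Apex2 itself in its fall was not tested. Of the 3 other short loci in the same stretch, none reached the level tested.

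Past Zfp51, a zinc-finger gene, the locus at chr17:21610824-21615724 had 1086, 712, 744 and 1232 in MI hearts, against 645, 487, 498 and 492 in Sham hearts. All MI hearts were above all Sham hearts; the locus rose by 0.80 ± 0.18 (adjusted p = 0.0056) and the gene fell by 0.40, a difference of 1.20 ± 0.26 (adjusted p = 0.00903). At 2810433D01Rik the locus rose less than its gene, with locus minus gene at -1.03 ± 0.22 (adjusted p = 0.00828). Past Akap13, an anchoring protein of protein kinase A, the locus at chr7:82901549-82911054 had 250.5, 326, 162 and 199 in MI hearts, against 331, 439.6, 291 and 851 in Sham hearts. MI replicate 2 lay above Sham replicate 3, Sham replicate 4 stood far above the other Sham hearts, and the locus fell, with a log2 difference of -0.94 ± 0.32 (adjusted p = 0.038) beside 0.19 ± 0.14 for the gene (-1.13 ± 0.29, adjusted p = 0.0224).

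Some loci of fewer reads rose less than a gene that rose strongly, or fell beside it. Ddah1 encodes an enzyme that degrades asymmetric dimethylarginine and rose by 1.78 ± 0.14, while the locus 6879 bp past it had 24.5, 28.8, 16.5 and 16.6 in MI hearts, against 29.8, 78.6, 40.9 and 44.1 in Sham hearts, and fell, with a log2 difference of -1.08 ± 0.33 (adjusted p = 0.0221). The locus minus gene difference was -2.86 ± 0.39 (adjusted p = 0.000481). At Cilp it was -4.49 ± 0.59 (adjusted p = 0.000427), beside the gene's own rise of 3.80. The Cilp locus reached the level tested only through Sham hearts, with an MI mean of 7.70. Fstl1, a secreted glycoprotein gene, rose by 2.64 ± 0.18, and the locus past it had 15.9, 19.8, 18.9 and 16.6 in MI hearts, against 11.9, 12.5, 10.2 and 7.88 in Sham hearts, apart in every heart but not past the threshold (0.70 ± 0.27, adjusted p = 0.0614; locus minus gene -1.93 ± 0.34, adjusted p = 0.00256).

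Some loci past genes with little change rose from few reads. Beyond Parp16, at chr9:65090372-65093426, there were 35.1, 14.8, 12.3 and 19.2 normalised reads in MI hearts, against 1.19, 0, 0 and 1.58 in Sham hearts, where 2 libraries had no read, so the fitted difference of 3.68 ± 0.49 (adjusted p = 0.000251) depends on the pseudocount. Beyond Tent4b, at chr8:90788534-90791339, there were 31.1, 13.2, 15.7 and 20.1, against 1.19, 3.42, 1.14 and 4.73 (2.60 ± 0.45, adjusted p = 0.00108). Both loci reached the level tested only through MI hearts, with Sham means of 0.693 and 2.62. In both the MI and Sham hearts did not overlap, and the genes differed by 0.27 and -0.09.

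Before the 5′ end, the loci of Plekha6 and Dpp9 had the smallest p of locus minus gene at a mean of at least 50, with locus minus gene at -1.79 ± 0.30 (adjusted p = 0.00185) and 1.44 ± 0.24 (adjusted p = 0.00198), and Dhx40 followed with 0.85 ± 0.16 (adjusted p = 0.00431). Adarb1 encodes an adenosine deaminase that edits RNA, and the locus 57 bp before it, at chr10:76881076-76885095, had 145, 166, 139 and 93.4 in MI hearts, against 180.2, 219, 207 and 208 in Sham hearts. It fell, with a log2 difference of -0.60 ± 0.18 (adjusted p = 0.0231) with no overlap of the groups, and the gene, with its CpG-rich start shown above, rose by 0.55 ± 0.08 (-1.16 ± 0.24, adjusted p = 0.00585). A further locus beyond it, of fewer reads, had 15.2, 16.5, 3.29 and 6.98 in MI hearts, against 14.3, 20.5, 26.1 and 22.1 in Sham hearts, and departed from the gene too (-1.66 ± 0.47, adjusted p = 0.0341).

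Vim encodes vimentin, the intermediate filament of fibroblasts and other mesenchymal cells, and rose by 1.40 ± 0.15. The locus 131 bp before it, at chr2:13492944-13495447, had 22.5, 21.4, 15.7 and 30.5 in MI hearts, against 20.3, 30.8, 22.7 and 12.6 in Sham hearts, ranges that overlap, and differed by 0.09 ± 0.32 (adjusted p = 0.856). Locus minus gene was -1.31 ± 0.34 (adjusted p = 0.0203), and -1.04 ± 0.29 (adjusted p = 0.0311) for a second locus 7855 bp away. Before Hnrnpf, an RNA-binding protein gene of level 19300 ± 1687 in MI hearts and 18470 ± 1683 in Sham hearts, the locus at chr6:117853458-117856572 fell to 39.8, 31.3, 50.2 and 45.4 in MI hearts, against 68.0, 80.9, 79.6 and 59.9 in Sham hearts (-0.79 ± 0.21, adjusted p = 0.0129).

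Several loci before gene starts moved further than their genes. Before Klf3, a Krüppel-like transcription factor gene, the locus at chr5:65193114-65194422 had 76.2, 62.6, 83.2 and 64.6 in MI hearts, against 44.2, 21.6, 20.5 and 23.6 in Sham hearts (1.41 ± 0.27, adjusted p = 0.00197), and the gene differed by 0.01 ± 0.12. Before Ddx17, an RNA helicase gene, at chr15:79377271-79379491, there were 13.3, 19.8, 18.9 and 17.4, against 41.8, 34.2, 45.5 and 39.4 (-1.17 ± 0.23, adjusted p = 0.00257), beside 0.20 ± 0.09 for the gene. At neither did the groups overlap. Gpt2, an alanine aminotransferase gene, fell by 1.35 on the log2 scale, and the locus 111 bp before it had 0, 5.76, 2.47 and 3.49 in MI hearts, against 21.5, 22.8, 40.9 and 25.2 in Sham hearts, a deeper fall of a locus that reached the level tested only through Sham hearts (-3.11 ± 0.55, adjusted p = 0.00132; locus minus gene -1.76 ± 0.50, adjusted p = 0.0333).

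Adjacent loci before Tsfm and before the locus that joins Cyp27b1 and Mettl1, at chr10:126469593-126472006 and chr10:126472373-126475153, rose side by side. The first had 37.8, 14.0, 20.6 and 24.4 in MI hearts, against 10.7, 4.55, 1.14 and 4.73 in Sham hearts, and the second 31.1, 14.8, 10.7 and 24.4, against 3.58, 1.14, 1.14 and 3.15. The differences were 2.16 ± 0.51 and 2.69 ± 0.45 (adjusted p = 0.00676 and 0.000931), with no overlap of the groups at either and Sham means of 5.29 and 2.25, so that both reached the level tested only through MI hearts. These stood beside -0.34 and 0.01 for the genes. In all, 12 loci were called in the direction opposite to a called gene. Past a 3′ end these were the loci of Apex2, Zfp51, Ddah1, Kank1 and Col13a1. Before a 5′ end they were those of Dpp9, Adarb1, Tsfm, Malsu1, A430078I02Rik, Xylt1 and Gins2. The Malsu1 locus reached the level tested only through MI hearts, with a Sham mean of 1.83. The Xylt1 locus, 145 bp long, did so only through Sham hearts, with a mean of 29.6 there. The loci past Apex2, Kank1 and Col13a1 lay 1230, 2460 and 167 bp from an assembled end. The transcripts that equal a UCSC gene ended 24879, 13507 and 9336 bp away.

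**Figure D5:**
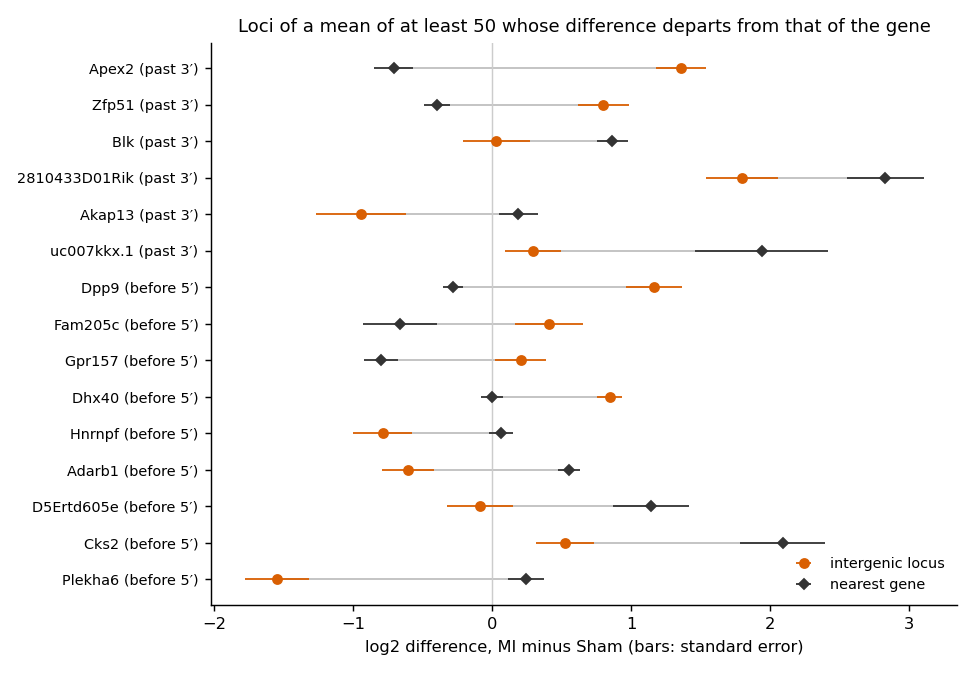
The log2 difference, MI minus Sham, of the locus (circles) and its nearest gene (diamonds), with standard errors as bars, for the 15 loci of a mean of at least 50 whose difference departs from that of the gene. Loci of Apex2, Zfp51 and Dpp9 lie to the right of 0 with the gene to its left, and the Adarb1 locus lies to the left of 0 with the gene to its right.

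A few of these loci fall within exons that a later annotation gives to the gene. By lengths of exons and introns alone, the last exon of a GENCODE M21 transcript reached 20 of 1685 compared loci past a 3′ end (1.19%), and its first exon reached 28 of 1726 before a 5′ end (1.62%). Of the loci reached past a 3′ end 18 were covered in full and 8 were tested. By limma 3 of these were higher, beside 20.8% of all tested loci, and none was lower or departed from its gene, with 4 at an unadjusted p under 0.05, all higher, and 3 called by edgeR and 3 by DESeq2. The 3 lay past Tnr, Arfgef3 and Lockd, with log2 differences of 1.14, 1.35 and 1.66 beside 0.63, 1.43 and 2.66 for the genes. Their means were 14.8, 19.8 and 18.9 normalised reads in MI hearts and 6.39, 6.66 and 6.15 in Sham hearts, so they reached the level tested only through MI hearts. Of the loci reached before a 5′ end, 4 were covered in full, 19 were tested and 1, that before Egr1, departed from its gene. None of the 19 was called by limma, edgeR or DESeq2, and 2 had an unadjusted p under 0.05.

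Compared with other intergenic loci the loci near genes had fewer calls in both tests, though no test of this difference was made. Single-exon loci 10 kb or more from a gene numbered 2821, of which 934 were tested, 73 were higher and 167 lower (25.7%), with a median of −0.23 and 14.5% departing from the nearest gene. Spliced intergenic loci under 10 kb numbered 527, of which 396 were tested, 57 were higher and 87 lower, with 19.4% departing. Their median level per kb was 12.3 normalised reads, and 75.1% reached the level tested, against 37.5% of loci past a 3′ end and 35.6% of those before a 5′ end. The 377 tested loci inside or overlapping a gene gave 18 higher and 36 lower, with a median of −0.16 and 2.65% departing.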

How the data were processed

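Poly(A) RNA of 8 border zones, extracted with Trizol, was sequenced as read pairs (100 bases each) on a HiSeq2000, per the labels' protocols. The submitters' processing notes name mm9 as the build and list HTSeq 0.5.4p2, DESeq, TopHat2 2.0.5 and Cufflinks 2.0.2 among the tools. Their settings and the strandedness are not given in the sources used. The deposited signal per locus and library proved to be whole reads divided by 1 size factor (100% of values whole within 1e-06), so depth is known. Pairs of libraries of a group differed beyond sampling noise (chi-square per degree of freedom 29.7 to 147). A count of 0 allows 3 reads, which is 1.99 to 4.73 normalised reads, a limit of counting error only.

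Groups follow the titles and treatment field; the source field of MI samples names Sham, and some descriptions conflict. Genes were named by matching lengths of exons and introns to GENCODE M21, for 19713 of 20506 spliced annotated loci (96.1%; altered structures gave 99 names, 0.502%). Of the 4433 loci, 4121 have a named neighbour, and 248 a neighbour that holds exons of more than 1 gene. Unnamed neighbours carry UCSC identifiers. Coordinates are mm9, from 1.

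The test was limma 3.58.1 with a trend (R 4.3.3) on log2(value + 1), over loci of a mean of at least 10, 2-sided, Benjamini-Hochberg at 0.05. Every adjusted p is from it, or from limma on locus minus gene. The pseudocount understates changes of low loci. Recovered reads were also tested with edgeR 4.0.16 and DESeq2 1.42.0. Named loci are the largest rises (6 past, 5 before) and falls among called loci of a mean of at least 50 with groups apart, the 3 highest per kb, the 3 smallest p of locus minus gene, those at the distance limit and up to 2 per gene list; any others were chosen after their values were seen. Results for a few loci are not reported here. Members and lists were chosen with earlier results of these data known. Python 3.11.15, pandas 2.3.3, numpy 2.4.6 and scipy 1.17.1 did the rest.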

Additional observations from a re-analysis of the deposited data

Results flagged for a closer look

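Of 82 groups of 4 libraries at the named loci, 11 had 1 library far from the other 3 by Dixon's criterion at the 95% level, which chance gives in about 1 in 20 groups. Among MI groups, replicate 2 was low past Mmp16 (72.47 normalised reads) and past Acadl (23.06) and high before Gm28703 (109.5), and replicate 1 was high past Zfp458 (53.03) and before Sptlc2 (9.279). Among Sham groups, replicate 1 was high past Gm3787 (192.2) and past Zfp51 (644.6), replicate 2 was high past Zfp458 (44.41), replicate 3 was low past Amd1 (65.94), and replicate 4 was high past uc007ykn.1 (2721) and low before Plekha6 (520.3). At Mmp16, Gm3787, Amd1, Zfp51, Gm28703 and Plekha6 the MI and Sham libraries still did not overlap. The cause of these values was not tested.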

How the results depend on the processing

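Pseudocount 5, TMM scaling, edgeR, DESeq2 and restriction to loci with 1 possible side moved no count by over 1.5 times: edgeR called 75 higher and 26 lower past the 3′ end and 50 and 47 before the 5′ end, DESeq2 62 and 28, and 44 and 50. With no filter on low values 139 were higher past and 132 before, 52 and 79 departed from their gene, the median before the 5′ end was 0.198, and rho was 0.424 and 0.328. All 28826 loci tested in that setting gave 4467 higher and 3725 lower. Scaled to equal totals, 145 were higher and 12 lower past, 101 and 19 before, with medians of 0.397 and 0.273. All 19245 loci tested under that scaling gave 8569 higher and 1493 lower, with a median of 0.291. At a limit of 5 kb, 19 were lower past and 30 before, 16 departed past, and rho was 0.535 and 0.324. With reads thinned to equal depth, added after the data were seen, rho before the 5′ end was 0.269. Replicate numbers did not pair the libraries (same-number correlations 0.146, 0.272, 0.16 and −0.000918); with the replicate block 68 were higher and 37 lower past, 51 and 54 before, and 37 and 48 departed. Leaving out 1 library gave 38 to 68 higher and 17 to 36 lower past, 22 to 47 and 33 to 54 before, 13 to 26 and 23 to 44 departing, medians of 0.004 to 0.129 and −0.131 to 0.024, and rho of 0.472 to 0.506 and 0.253 to 0.297. Of 28 called named loci 19 kept the call throughout. Directions reversed only at uncalled ones: scaled to equal totals, Tra2a was 0.051 and Acadl 0.131, and leaving out 1 library gave −0.515 to 0.069 for Tra2a, −0.24 to 0.014 for Acadl, −0.001 to 0.044 for Rad18, −0.244 to 0.335 for Tpm1, −1.238 to 0.24 for Ppargc1a and −0.002 to 0.269 for Trdn. The causes were not tested. The locus minus gene test was not run with edgeR or DESeq2. Depth limits the 2726 loci of a mean under 10, which were not tested.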
